A study of Mus musculus with 11 samples.

Results

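The cells here were 98 single testis cells high in the mean of 6 genes, led by Rad51ap2, a pattern proposed as late zygotene spermatocytes. They were chosen by their measured values: wells with at least 3000 UMIs (unique molecular identifiers, each marking 1 captured mRNA molecule) were scored by the mean over Rad51ap2, A330049N07Rik, Elavl3, Cd209c, Gm13399 and Srgap1 of ln(1 + UMIs per 10000), and the highest 8% within each mouse were taken. This gave 38 wells in mouse 1, 22 in mouse 2 and 38 in mouse 3, of 475, 273 and 480 wells that passed the minimum (98 of 1228 in all, from 1920 wells sorted). The wells are called members below, and the remaining 1130 the other wells. The last well inside the rule and the first outside it had scores of 1.29 and 1.27 in mouse 1, 1.05 and 1.01 in mouse 2, and 0.719 and 0.717 in mouse 3, so the rule cut through a continuous range.

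Cells came from testes of 3 adult mice that carried a Dazl-GFP reporter, and live, GFP-positive cells were sorted into 384-well plates for SORT-Seq, which counts the 3' ends of polyadenylated RNA. All groups therefore share the reporter, and Dazl, which marks germ cells, took part in choosing every cell. Strain and exact age were not given in the sources used here. Mouse 1 was made with CEL-Seq1 and mice 2 and 3 with CEL-Seq2, so the protocol and mouse 1 cannot be told apart. Mouse 3 had a library sorted by a gate alone, which gave 11 members of 267 wells (4.12%), and an index-sorted library, which gave 27 of 213 (12.7%). The replicate is the mouse (n = 3), and cells of a mouse were summed.

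In the first meiotic prophase, chromosomes break at many sites in leptotene, pair and begin to join along a protein zipper, the synaptonemal complex, in zygotene, and are fully joined in pachytene. In males the X and Y have little to pair with, and in pachytene their genes are silenced, which is known as meiotic sex chromosome inactivation. RNA from the X and Y thus gives a readout of these stages that none of the 6 score genes enters, as all with a known position are autosomal. For a reading on either side, members were compared with 76 wells chosen the same way by Ccnb3, an X-linked cyclin of early prophase, and with 84 wells chosen by Gml and Hemt1. Choosing by an X-linked gene favours wells with X-linked RNA, so a high X share of Ccnb3-high wells was in part set by their choice. Members were left out of both groups, although 22 of the 98 members (22.4%) were also among the highest 8% for Ccnb3 and 14 (14.3%) among those for Gml and Hemt1, with none in both.

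Positions are those of GRCm38. Rad51ap2, which gives the score its name, lies on chromosome 12 (chr12:11456079-11462928, plus strand), and A330049N07Rik is a long intergenic non-coding RNA (chr10:72973303-73086705, minus strand). Elavl3 encodes an RNA-binding protein best known from neurons (chr9:22015005-22052023, minus strand), Cd209c a C-type lectin (chr8:3940222-3954746, minus strand) and Srgap1 a GTPase activator that acts downstream of Slit and Robo (chr10:121780991-122047315, minus strand). For 5 of the 6, all but Gm13399, the RefSeq table for GRCm38.p6 held a promoter window, of which the 250 bases before the start site were searched on both strands for 4 motifs, none of which contains another. These were GGCAGTT (the core bound by A-MYB, the MYB factor of spermatocytes), CACGTG (the E-box), CNCCTCAG (the motif of STRA8, the meiotic initiator) and CCAAT. None of the 5 windows held the first 3, which occurred in 3.33%, 6.02% and 6.42% of all 32851 windows of this length. CCAAT stood in the windows of Elavl3 and Cd209c, and in 33.8% of all windows. The window of Cd209c (chr8:3946864-3947113, minus strand) follows the RefSeq start and lies inside the gene span given above. Its CCAAT is therefore not before the start of that span. The windows of 3 genes are shown, with CCAAT in capitals where it occurs: that of the gene that names the score (chr12:11455805-11456054, plus strand), of the RNA most concentrated in members (chr10:73086706-73086955, minus strand) and of the neuronal gene (chr9:22052024-22052273, minus strand).
Rad51ap2: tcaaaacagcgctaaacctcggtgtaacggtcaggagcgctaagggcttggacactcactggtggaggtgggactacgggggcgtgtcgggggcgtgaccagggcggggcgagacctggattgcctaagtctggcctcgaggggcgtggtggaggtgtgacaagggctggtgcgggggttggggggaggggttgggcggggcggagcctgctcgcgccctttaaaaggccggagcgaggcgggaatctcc
A330049N07Rik: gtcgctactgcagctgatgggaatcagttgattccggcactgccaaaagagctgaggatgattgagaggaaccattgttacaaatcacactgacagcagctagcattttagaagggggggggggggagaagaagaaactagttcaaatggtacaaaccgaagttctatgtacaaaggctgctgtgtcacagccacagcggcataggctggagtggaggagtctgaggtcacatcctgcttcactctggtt
Elavl3: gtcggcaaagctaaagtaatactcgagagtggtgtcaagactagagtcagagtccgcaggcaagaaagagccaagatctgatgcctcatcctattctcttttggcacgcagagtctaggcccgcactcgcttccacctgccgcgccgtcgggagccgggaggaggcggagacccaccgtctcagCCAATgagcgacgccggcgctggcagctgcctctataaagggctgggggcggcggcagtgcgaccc
A match is a description and not a binding site, and the absence of a motif says only that its letters are not in this window.

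The score genes chose the members, so their levels are given without a test. Levels are given in CPM, a gene's UMIs scaled to the summed UMIs of the group in that mouse. Rad51ap2 stood at 445, 372 and 319 CPM in the members of mice 1, 2 and 3, and at 32.2, 33.8 and 15.7 in the other wells. Elavl3 had 522, 848 and 608 CPM in members and 32.0, 44.0 and 17.7 in the other wells, and Cd209c had 604, 558 and 933 against 41.5, 56.1 and 60.4. Members of every mouse were thus far above the other wells for these 3 genes. A330049N07Rik was less even, with 489 and 441 CPM in the members of mice 1 and 2 but 115 in mouse 3, against 7.83, 10.5 and 1.85. Srgap1 had 103, 82.2 and 91.1 CPM against 4.07, 8.36 and 2.89.

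Gm13399 behaved differently from the other 5 genes. Members of mouse 1 held 402 UMIs of it (798 CPM, against 50.1 in the other wells), and those of mice 2 and 3 held 1 UMI each. The score in mice 2 and 3 therefore rested on 5 genes. When each score gene in turn was left out and the members were rebuilt from the other 5, between 88 and 94 of the 98 wells were chosen again. The left-out gene was then still 32.8 to 43.4 times as abundant in members as in the other wells for A330049N07Rik, 13.8 to 30.7 times for Elavl3, 9.23 to 13.8 times for Cd209c, 8.63 to 15.9 times for Rad51ap2 and 9.08 to 23.6 times for Srgap1, over the 3 mice. For Gm13399 the ratio was 14.3 in mouse 1, 0 in mouse 2 (0 UMIs in the rebuilt members) and 2.85 in mouse 3 (1 UMI). These ratios are descriptions, since the 6 genes were proposed together from these data.

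**Figure D1:**
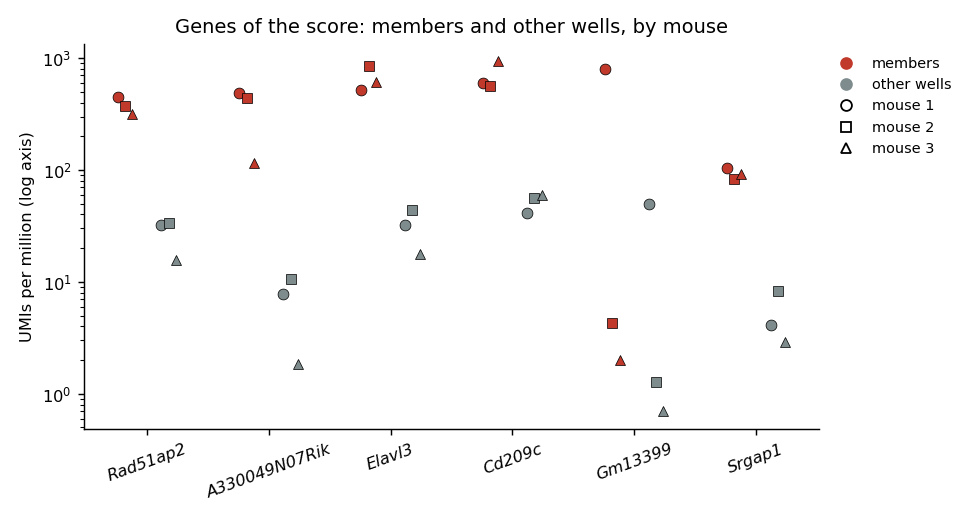
CPM (log axis) of the 6 genes of the score in members (red) and other wells (grey), 1 point per mouse. Members lie above the other wells of the same mouse for every gene, and Gm13399 reaches high levels in mouse 1 only (798 CPM in members, against 4.33 and 1.98 in mice 2 and 3).

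Single members seldom showed all 6 genes. In mouse 1, 17 of 38 members had UMIs of all 6, 18 of 5 and 3 of 4. In mouse 2, 9 of 22 had 5 and 13 had 4, and in mouse 3 the members had between 2 and 5. To set wells of unequal depth side by side, each was thinned to 3000 UMIs. Rad51ap2 was then seen in 76.3%, 68.2% and 71.1% of members of mice 1, 2 and 3 and in 15.8%, 12.7% and 10.6% of the other wells (94.7%, 86.4% and 94.7% against 36.6%, 35.1% and 25.8% without thinning). Srgap1 was seen in 36.8%, 27.3% and 18.4% of thinned members against 1.37%, 1.99% and 1.81%. Wells with fewer than 1000 UMIs gave 0 to 7 UMIs of each score gene in a mouse. Scaled to their small totals, some of these levels were at or above those of the other wells. Examples were Cd209c at 128 CPM in mouse 2 (4 UMIs) and Elavl3 at 78.6 in mouse 1 (7 UMIs). Whether these wells held free RNA or cells was not tested. Low levels of the score genes in other wells thus cannot be told from background.

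The score genes were also present on both sides of the members. In Ccnb3-high wells Rad51ap2 stood at 269, 258 and 247 CPM and in Gml and Hemt1-high wells at 148, 121 and 75.5, in mice 1, 2 and 3. The rule that chose members used Rad51ap2, and members were left out of both groups, so these levels place members nearer neither side. Elavl3 had 114 ± 54.1 CPM (SD, n = 3 mice) in Ccnb3-high and 142 ± 38.5 in Gml and Hemt1-high wells, against 660 ± 169 in members, and Srgap1 had 22.5, 25.8 and 20.2 CPM in Ccnb3-high and 15.4, 42.9 and 4.04 in Gml and Hemt1-high wells. For those 2 genes the neighbour groups overlapped each other.

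Members held less RNA than most other wells. Their median was 9344, 7636 and 13242.5 UMIs per well in mice 1, 2 and 3, against 24436, 13601 and 21663.5 in the other wells, a log2 difference of -0.98 ± 0.36 (SD, n = 3). Relative to the ERCC spike-ins, synthetic RNAs added in equal amount to each well, the difference was -1.02 ± 0.33. Both were lower in 3 of 3 mice, with p = 0.25 in the exact two-sided permutation test, the smallest that 3 mice allow. Depth enters the rule through the minimum and the scaling, so this is a description. Against Ccnb3-high wells the log2 difference in UMIs per ERCC UMI was 0.30 ± 0.42, and against Gml and Hemt1-high wells -1.15 ± 0.33. Mitochondrial genes gave 13.5 ± 4.4 of 100 UMIs in members and 8.12 ± 3.32 in other wells (higher in 3 of 3 mice, exact permutation p = 0.25). Their share lay below that of Ccnb3-high wells and above that of Gml and Hemt1-high wells in all 3 mice, by log2 ratios of -0.17 ± 0.13 and 0.36 ± 0.05. The part of depth and mitochondrial RNA in the results below was not tested, apart from a repeat with all wells thinned to 3000 UMIs. That repeat is cited because sums weigh deep wells most. Other wells with fewer than 1 X-linked UMI per 100 autosomal UMIs had medians of 46761.5, 35236.5 and 53147.5 UMIs in mice 1, 2 and 3, and those with 2.5 or more had 13140.0, 8948 and 11699.5.

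Summed over wells, the X share of members lay between those of both neighbours. The Ccnb3-high side of this order was in part set by choosing those wells by an X-linked gene. X-linked UMIs per 100 autosomal UMIs, with Ccnb3 left out, came to 2.08, 2.14 and 1.73 in the members of mice 1, 2 and 3. Ccnb3-high wells had 3.85, 3.40 and 2.90, and Gml and Hemt1-high wells 0.476, 0.306 and 0.246. These sums did not overlap, although single wells did. The log2 ratio of members was -0.77 ± 0.11 to the Ccnb3-high and 2.58 ± 0.39 to the Gml and Hemt1-high wells (SD, n = 3, exact permutation p = 0.25 for each, the smallest possible). The Y share followed the same order, with 0.224 ± 0.127 UMIs per 100 in Ccnb3-high wells, 0.163 ± 0.0798 in members and 0.0102 ± 0.00473 in Gml and Hemt1-high wells.

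Members were not uniform in this respect. Their X shares ran from 0.766 to 4.50 in mouse 1, from 0.332 to 4.50 in mouse 2 and from 0.326 to 5.41 in mouse 3. With limits set after the values were seen, 23 of the 98 members had an X share below 1, 38 between 1 and 2.5, and 37 of 2.5 or more. Among Ccnb3-high wells these counts were 1, 7 and 68 of 76, and among Gml and Hemt1-high wells 82, 1 and 1 of 84. The middle range held 38.8% of members and 21.5% of the other wells. By mouse, it held 15 of 38, 8 of 22 and 15 of 38 members in mice 1, 2 and 3. Among other wells it held 37 of 437, 62 of 251 and 144 of 442. The contrast was thus widest in mouse 1 and slight in mouse 3. The members thus spanned the X shares of both neighbour groups, and many stood between them.

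**Figure D2:**
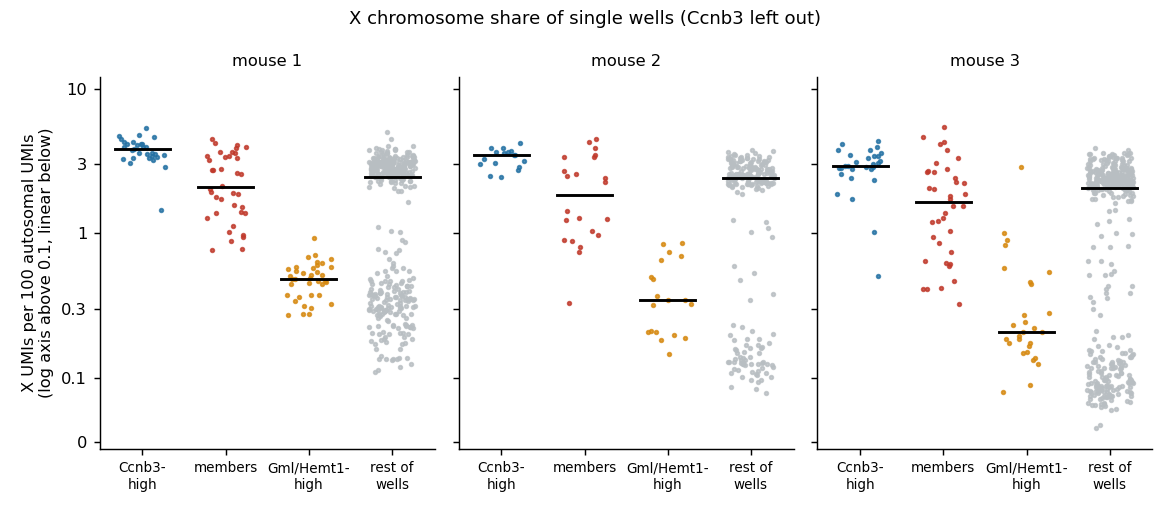
X-linked UMIs per 100 autosomal UMIs (log axis above 0.1, linear below) of every well with at least 3000 UMIs, by mouse, with black lines at the medians. Ccnb3-high wells lie high and Gml and Hemt1-high wells low, whereas the 98 members spread between them, 38 of them between 1 and 2.5; the rest of the wells form a high and a low cloud in each mouse.

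Because the other wells fell into a high and a low group, the comparison of members with all of them depended on how wells were weighted. Summed UMIs gave an X share of 1.98 ± 0.22 in members and 1.01 ± 0.20 in other wells, a log2 ratio of 0.98 ± 0.13 with members higher in 3 of 3 mice (exact permutation p = 0.25). With each well thinned to the same depth the ratio was 0.27. Medians over wells went the other way, with 2.07, 1.84 and 1.64 in members and 2.37, 2.39 and 2.07 in the other wells. The X share as a whole thus had no 1 direction against all other wells, and X-linked genes named against them below are those of the summed counts.

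Within members, the X share varied with some stage markers and not with others. Over the members of each mouse, Spearman's rho between X share and Ccnb3 was between 0.52 and 0.75, and for Sycp1 between 0.34 and 0.61. It was between -0.70 and -0.43 for Gml, between -0.51 and -0.45 for Hemt1 and between -0.61 and -0.26 for Ybx2, a germ-cell RNA-binding protein. Other markers of the same lists went otherwise: Mnd1, a leptotene and zygotene marker, was between -0.52 and -0.26, and Mybl1, an early pachytene marker, between 0.04 and 0.25. Psmc3ip (-0.54 to 0.18), Tcfl5 (-0.31 to 0.26) and Piwil1 (-0.03 to 0.03) had no 1 direction. The score itself had rho between -0.21 and 0.13, and A330049N07Rik was between 0.12 and 0.42 while Elavl3 was between -0.39 and -0.16. These values are descriptions over 38, 22 and 38 wells, which share a library and vary in depth.

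Gene by gene, X-linked transcripts of members stood below those of Ccnb3-high wells and above those of Gml and Hemt1-high wells. As above, the difference from Ccnb3-high wells was in part set by how those wells were chosen. UMI counts summed per mouse and group were tested with edgeR's quasi-likelihood test, with the mouse as a block and calls at a Benjamini-Hochberg adjusted p under 0.05. Against Ccnb3-high wells, 3 of the 165 X-linked genes tested were higher in members and 92 lower. Over all 5485 genes tested, 12.1% were higher (662) and 12.5% lower (684). Against Gml and Hemt1-high wells, 144 of 150 X-linked genes were higher and 1 lower, beside 20.2% higher (1382) and 22.2% lower (1516) of all 6844 genes. The median log2 fold change of X-linked genes was -0.88 and 3.43 in the 2 comparisons, against -0.0007 and -0.02 for all genes. With thinned wells the counts were 1 higher and 29 lower of 63 X-linked genes, and 30 higher and 0 lower of 30. Against all other wells 174 of 383 X-linked genes were higher and 28 lower in the summed counts, and 42 and 16 of 182 with thinned wells.

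Scml2, an X-linked Polycomb-type protein of the germline, had 530.3, 939 and 773 CPM in members and 46.1, 48.3 and 63.4 in Gml and Hemt1-high wells (log2 fold change 3.73 ± 0.16 SE, edgeR adjusted p = 6.24e-68). Every member sum exceeded every sum of that group. Against Ccnb3-high wells, at 1174, 1272 and 903 CPM, Scml2 was lower (-0.58 ± 0.17, edgeR adjusted p = 0.00379), with overlap between mice. Taf7l, an X-linked paralogue of a general transcription factor subunit, had 318, 528 and 410.1 CPM in members, 779, 1074 and 1085 in Ccnb3-high wells and 8.78, 5.36 and 33.7 in Gml and Hemt1-high wells. Both differences passed the test, at -1.22 ± 0.17 and 4.51 ± 0.23 (edgeR adjusted p = 4.03e-11 and 1.75e-54), and no groups overlapped. Slc25a14 and Zmat1, with 37 and 36 UMIs in members and none in Gml and Hemt1-high wells, were at least 20.2-fold and 19.6-fold higher on a floor of 3 UMIs over the group.

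The Y-linked transcription factors Zfy1 and Zfy2 were among the largest rises against all other wells. They are near-identical copies, so the split of reads between them is uncertain. Zfy2 (chrY:2106015-2170409, minus strand) had 252, 199 and 77.3 CPM in members and 14.7, 7.45 and 1.85 in the other wells (log2 fold change 4.70 ± 0.25, edgeR adjusted p = 7.18e-43), and Zfy1 (chrY:725128-797409, minus strand) had 240.3, 117 and 69.3 against 15.3, 6.36 and 3.13 (4.27 ± 0.27). In Gml and Hemt1-high wells they had 3 and 1 UMIs in all. Every member sum exceeded every sum of the other wells for both. Ube2a, an X-linked ubiquitin-conjugating enzyme (chrX:36873900-36884222, plus strand), had 151, 199 and 188 CPM against 8.65, 13.1 and 6.48 (4.42 ± 0.23, edgeR adjusted p = 1.16e-43). With thinned wells Zfy2, Zfy1 and Ube2a were still called, at 3.24, 3.34 and 3.21. X- and Y-linked genes did not rise in this way against Ccnb3-high wells, which were chosen by an X-linked gene. There, 0 of the 7 Y-linked genes tested were higher in members and 1 was lower, and 3 of 165 X-linked genes were higher and 92 lower. The promoter window of Zfy2 (chrY:2170410-2170659, minus strand) is shown because, unlike those of the score genes, it held the STRA8 motif, read as CTGAGGGG on this strand, as well as CCAAT, both in capitals.
Zfy2: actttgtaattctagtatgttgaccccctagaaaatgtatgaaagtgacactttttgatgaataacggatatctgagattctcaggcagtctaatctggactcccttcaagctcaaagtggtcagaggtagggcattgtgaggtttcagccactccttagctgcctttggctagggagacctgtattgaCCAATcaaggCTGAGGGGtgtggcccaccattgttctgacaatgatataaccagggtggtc
The windows of Zfy1 and Ube2a held none of the 4 motifs. That of Ube2a (chrX:36874045-36874294, plus strand) follows the RefSeq start and lies inside the gene span given above.

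Against all other wells, 2418 of 11449 genes were higher in members (21.1%) and 3236 lower (28.3%), so changes were common and single counts are read beside these shares. The 12 largest rises by the naming rule held 10 genes of the X and Y, with Nrk, Zfp280c, Dynlt3, Gm6268, 1700080O16Rik, Nxf3 and Gm16390 next to those above. Of these 7, Dynlt3 and Nxf3 had enough UMIs to be tested with thinned wells and were called (3.30 and 2.39), and the other 5 were not tested there. The other 2 rises were autosomal. Chpf, an enzyme of chondroitin chain synthesis (chr1:75474569-75479307, minus strand), had 103, 60.6 and 97.1 CPM against 6.14, 9.08 and 9.09 (3.59 ± 0.32), and Npr2, a natriuretic peptide receptor (chr4:43631935-43651244, plus strand), had 35.8, 51.9 and 67.4 against 6.83, 4.00 and 3.24 (3.57 ± 0.41). Both had adjusted p-values under the threshold in edgeR (7.48e-21 and 2.38e-14). The 8 largest falls were of genes without a UMI in any member: Gm5458, Ttc30a2, Cdyl2, Cdc6, Gorasp1, Zbbx, Dhx58 and Fsd1. Cdc6, which loads the replicative helicase before DNA synthesis, had 26.5, 31.6 and 23.8 CPM in the other wells and was at least 10.8-fold lower in members. Gm5458 was at least 13.1-fold lower over all mice, a bound carried by mouse 1, with 63.6 CPM in the other wells of mouse 1 and 7.63 and 10.1 in mice 2 and 3.

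The label was set beside marker lists. Members and lists were both chosen with earlier results of these data known, so the counts are descriptions and not an independent check. Counts of these and the later lists are read beside the shares of all genes tested. Against other wells 21.1% of all genes were higher and 28.3% lower. The shares were 12.1% and 12.5% against Ccnb3-high wells, and 20.2% and 22.2% against Gml and Hemt1-high wells. Of 14 leptotene and zygotene markers, all tested, 10 were higher in members than in other wells and 1, Psmc3ip, lower (median log2 fold change 1.53, against -0.15 for all genes). All 12 later pachytene markers were lower (median -3.00), as were 8 of 9 markers of differentiating and 5 of 6 tested of undifferentiated spermatogonia, and 4 of 7 preleptotene markers. The exception among differentiating markers was Sohlh2, which was higher (1.74 ± 0.20). Early pachytene markers split, with Brdt, Gml and Hemt1 higher and Piwil1, Tcfl5 and Ybx2 lower of 9. Against Ccnb3-high wells 5 of 8 early pachytene markers were higher, none lower, and against Gml and Hemt1-high wells none was higher and 3 of 6 were lower. The leptotene and zygotene list had no 1 direction against Ccnb3-high wells, where 4 of 12 tested were higher and 3 lower (median 0.11). Against Gml and Hemt1-high wells 6 of 12 were higher, among them the X-linked Ccnb3, and 1 was lower. The summed level of this list was 15269 ± 2027 CPM in members (SD, n = 3), 13596 ± 907 in Ccnb3-high, 11947 ± 1345 in Gml and Hemt1-high and 5594 ± 534 in other wells.

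Sycp3, a core protein of the chromosome axis, had 3508, 5575 and 5028 CPM in members and 1007, 1297 and 1022 in other wells (log2 fold change 2.16 ± 0.11, edgeR adjusted p = 1.23e-43). Members were above the other wells in every mouse, with no overlap. Sycp1, the zipper filament, had 3402, 3367 and 3435 CPM in members, with 1368, 1409.9 and 1086 in other wells (1.50 ± 0.11). It differed little from Ccnb3-high wells, at 3929, 3653 and 2672 CPM (0.04 ± 0.17, edgeR adjusted p = 0.906). Of 11 synaptonemal complex genes 6 were higher than in other wells and Syce1, of the central element, lower. Against Ccnb3-high wells Sycp3 and Hormad1, an axis protein that marks unjoined chromosomes, were higher, and Syce1, Syce2, Tex12 and 4930447C04Rik lower, of 10. The call for Tex12 was lost under 10 of 16 alternatives and that for 4930447C04Rik under 7.

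Of 8 genes of double-strand break formation, 7 were lower in members than in Ccnb3-high wells and none higher. Mei1, required for the breaks (chr15:82069996-82126814, plus strand), had 1.99, 0 and 7.92 CPM in members and 48.1, 198 and 190.3 in Ccnb3-high wells (log2 fold change -4.90 ± 0.51, edgeR adjusted p = 5.15e-19). Prdm9, the methyltransferase that places the breaks, had 21.8, 17.3 and 37.6 CPM against 170.0, 344 and 255 (-3.09 ± 0.30, edgeR adjusted p = 1.05e-22). Spo11, the enzyme that cuts, fell less, from 170.0, 163 and 271 to 87.4, 117 and 133 (-0.85 ± 0.24). For these 3 genes no sum of members reached any of the Ccnb3-high wells. Ccdc36 was called lower as well, but most of its UMIs came from mouse 1, with 238 CPM in members of mouse 1 and 8.66 and 7.92 in mice 2 and 3. Against other wells 1 of 8 was higher and 2 lower.

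Strand exchange genes did not move together. Meiob, a single-strand DNA binder, had 375, 584 and 487 CPM in members and 85.4, 106 and 56.1 in other wells (2.67 ± 0.13), and Mnd1, a meiotic recombination factor, had 189, 126 and 166 against 44.6, 26.5 and 17.9 (2.62 ± 0.20). Both were clear of overlap. Dmc1, the meiotic recombinase, had 256, 225 and 254 CPM in members, 507, 610.3 and 1105 in Ccnb3-high wells and 177, 153 and 147 in Gml and Hemt1-high wells. It was lower than in the first (-1.51 ± 0.18, edgeR adjusted p = 6.06e-15) and higher than in the second (0.63 ± 0.17, edgeR adjusted p = 0.000743). Over the list, 4 of 20 were higher and 10 lower than in other wells, beside 21.1% and 28.3% of all genes. Of 10 meiotic cohesins and partners, 6 of 8 tested were lower than in Ccnb3-high wells, with Stag3 at 256, 355 and 410.1 CPM against 468, 765 and 943 (-1.03 ± 0.17, edgeR adjusted p = 9.01e-08).

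Crossover and telomere attachment genes were called in both directions, as were all genes. Of all genes tested, 21.1% were higher and 28.3% lower than in other wells. These shares were 12.1% and 12.5% against Ccnb3-high wells, and 20.2% and 22.2% against Gml and Hemt1-high wells. Against other wells, 5 of 17 crossover genes were higher, Msh4, Msh5, Hfm1, Mcm8 and Tex11, and 5 lower, among them Tex15, and of 13 telomere attachment genes 1 was higher and 4 lower. The call for Tex11 was lost with each mouse left out in turn and went to -0.34 with thinned wells, and that for Tex15 turned to 0.16 with the top 12% of wells and 0.21 with mouse 3 from its gate-sorted library. Against Ccnb3-high wells these counts were 1 and 4 of 14, and 0 and 3 of 9. Against Gml and Hemt1-high wells they were 3 and 3 of 16, and 1 and 3 of 11.

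**Figure D3:**
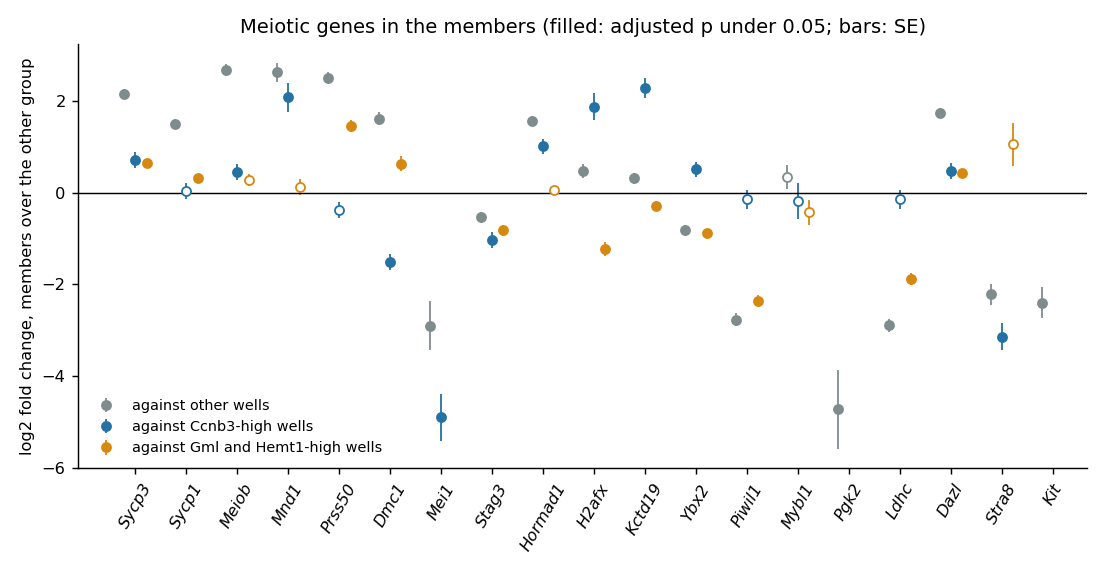
Log2 fold changes of members (bars are standard errors) over other wells (grey), Ccnb3-high wells (blue) and Gml and Hemt1-high wells (orange) for 19 meiotic genes, filled where the edgeR adjusted p is under 0.05; a gene that passed no filter on low counts in a comparison has no point. Mei1, Dmc1 and Stra8 lie below 0 against Ccnb3-high wells, and Piwil1 and Ldhc below 0 against Gml and Hemt1-high wells.

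Members stood above Ccnb3-high wells for other meiotic genes. Kctd19, a partner of the meiotic regulator ZFP541, had 453, 454 and 594 CPM in members against 170.0, 51.6 and 68.8 in Ccnb3-high wells (2.29 ± 0.21, edgeR adjusted p = 7.22e-24), and 604, 539 and 678 in Gml and Hemt1-high wells (-0.29 ± 0.11, edgeR adjusted p = 0.0322). The latter call was lost under 12 of 16 alternatives. H2afx, the histone that is phosphorylated over the silenced X and Y, had 139, 234 and 155 CPM, against 60.9, 34.4 and 32.4 in Ccnb3-high and 383, 507 and 324 in Gml and Hemt1-high wells (1.88 ± 0.30 and -1.22 ± 0.15, edgeR adjusted p = 2.47e-08 and 3.61e-13). Members lay between both groups without overlap. Of 13 genes of sex chromosome silencing tested against Ccnb3-high wells 2 were higher and 3 lower, and of 14 against Gml and Hemt1-high wells 3 were higher and 3 lower. The shares of all genes in these comparisons were 12.1% and 12.5%, and 20.2% and 22.2%. Atr, Topbp1 and Ubr2 were higher and Ehmt2 and Rnf8 lower than in the other wells, where 6 of 14 were higher and 2 lower.

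Genes of the piRNA pathway, which makes small RNAs against transposons, were higher than in Ccnb3-high wells in 6 of 16 tests and lower in none, and lower than in Gml and Hemt1-high wells in 11 of 18 and higher in 1, Mov10l1, a call lost under 11 of 16 alternatives. Piwil1, the Argonaute of pachytene piRNAs, had 125, 169 and 343 CPM in members against 803, 968 and 1419 in Gml and Hemt1-high wells (-2.37 ± 0.12, edgeR adjusted p = 1.62e-52). It had 115, 249 and 389 in Ccnb3-high wells, which members overlapped (-0.15 ± 0.20, edgeR adjusted p = 0.667). Ddx4, a germline helicase, had 379, 398 and 602 CPM against 1039, 1075 and 1219.9 in Gml and Hemt1-high wells (-1.28 ± 0.11, edgeR adjusted p = 3.07e-26). Against all other wells 2 of 19 were higher and 9 lower.

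Autosomal retrocopies, which stand in for housekeeping genes on the silenced X, were compared as well. Against Ccnb3-high wells 4 of 7 were higher (Pdha2, Rbmxl2, Rpl10l and Rpl39l) and Slc25a31 was lower, a call lost under 11 of 16 alternatives. Against Gml and Hemt1-high wells 6 of 8 were lower and none higher. Rpl10l, the copy of a ribosomal protein gene, had 352, 519 and 466 CPM in members, 148, 292 and 219 in Ccnb3-high and 881, 906 and 1078 in Gml and Hemt1-high wells (1.10 ± 0.19 and -1.14 ± 0.11, edgeR adjusted p = 2.66e-07 and 3.23e-20). The 3 groups did not overlap. Pgk2, the copy of phosphoglycerate kinase, had 1 UMI in the 98 members and was lower than in other wells (-4.73 ± 0.87, edgeR adjusted p = 1.01e-06). Against other wells 6 of 10 were lower and Utp14b was higher (lost under 9 of 15 alternatives), but Pdha2 and Rpl10l turned to 0.18 and 0.15 with thinned wells.

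**Figure D4:**
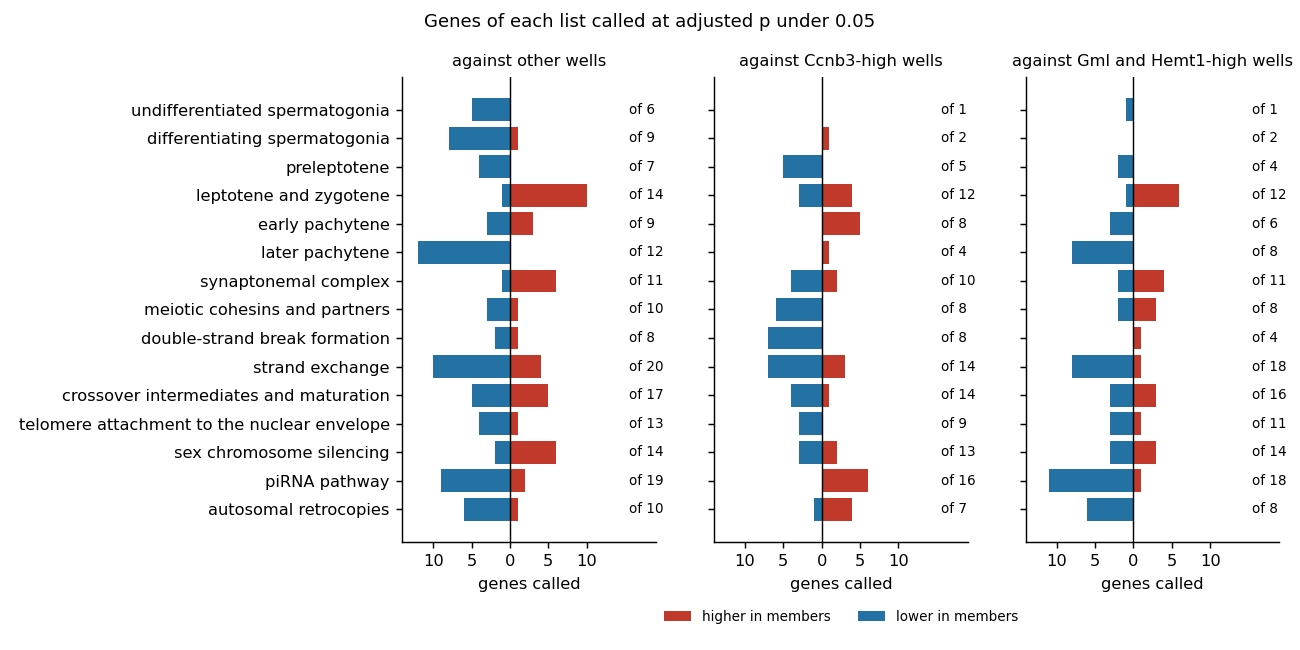
Number of genes of each list called higher (red, to the right) or lower (blue, to the left) in members at an edgeR adjusted p under 0.05, in the 3 comparisons, with the number tested at the right. Later pachytene markers are lower in 12 of 12 tests against other wells, and break formation genes in 7 of 8 against Ccnb3-high wells.

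Among meiotic transcription and RNA factors, 9 of 19 were higher and 6 lower than in other wells. Dazl had 3261, 4042 and 3522 CPM in members and 1093, 1404 and 983 in other wells (1.74 ± 0.11, edgeR adjusted p = 7.03e-34), with no overlap. The reporter's own eGFP row held 2, 2 and 0 UMIs in members and 17, 17 and 20 in the other wells, too few to compare. Stra8, which starts meiosis, was lower than in Ccnb3-high wells, with 9.93, 51.9 and 35.7 CPM against 103, 499 and 300 (-3.14 ± 0.29, edgeR adjusted p = 2.69e-24). Of 20 mitotic cell cycle genes 11 were lower than in other wells, 6 of them among the helicase subunits Mcm2 to Mcm7 and the clamp Pcna, and 5 were higher (Bub1, Ccne1, Cdc20, Cdk1 and Top2a). Among all genes, 28.3% were lower and 21.1% higher. The call for Ccne1 turned with thinned wells, to -0.53. Of 13 late prophase genes tested, Ccnb3, Cdk1 and Cks2 were higher than in other wells and Ccna1, Hspa2 and Plk1 lower. Against Ccnb3-high wells 4 of 8 were higher and 1 lower, and against Gml and Hemt1-high wells 2 of 10 were higher and 3 lower. The shares of all genes there were 12.1% and 12.5%, and 20.2% and 22.2%.

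Relatives of the score genes were compared as well. Of 12 listed paralogues 8 were in the table and 6 could be tested against other wells, none of them a Cd209 gene. Srgap2 was higher (109, 104 and 113 CPM against 57.0, 63.2 and 68.6, 0.89 ± 0.19, edgeR adjusted p = 3.73e-05), and Elavl2 and Rad51ap1 were lower (-1.86 ± 0.36 and -0.70 ± 0.22, edgeR adjusted p = 2.99e-06 and 0.00557).

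The largest differences from either neighbour lay mostly outside these lists. Gnas, the stimulatory G protein subunit (chr2:174284320-174346744, plus strand), had 629.6, 709.8 and 1056 CPM in members and 54.5, 60.2 and 40.5 in Ccnb3-high wells (3.99 ± 0.24, edgeR adjusted p = 8.94e-58), the largest rise in that comparison. Cers2, 2810474O19Rik, Akt1, Npr2, Phf2, Sort1 and Ktn1 followed, with log2 fold changes from 3.66 down to 2.88. The largest falls after Mei1 were of Rbpms2, an RNA-binding protein (10 UMIs in members against 126, -4.50 ± 0.39), Prim1, of the DNA primase (-3.99 ± 0.42), Gpsm2, Pgm2l1, Fam193b and Lig1, a DNA ligase (-3.39 ± 0.31). Each of these members' sums stood apart from the Ccnb3-high sums, but these genes were picked as the largest changes with the same sign in 3 of 3 mice. The share of all tested genes without overlap is not given here, for this or the other comparisons. Against Gml and Hemt1-high wells all 8 largest rises were X- or Y-linked, with Usp11, Mtmr1, Ccnb3 and Upf3b besides those above, and the largest falls were of Gas8, a ciliary protein (-4.62 ± 0.54), the listed later pachytene marker Aym1 (-4.15 ± 0.46), Elfn2, Ak8, Tmem159, Gm10619 and Ift27, of intraflagellar transport.

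Signs of other cells were small, with 1 exception. Of 8 Sertoli cell markers 3 could be tested, Clu, Cldn11 and Sox9. Clu and Cldn11 were called higher in members than in other wells, which came from mouse 3. Clu had 9.93, 4.33 and 87.2 CPM in members and 9.40, 18.5 and 24.3 in other wells (1.01 ± 0.37, edgeR adjusted p = 0.0166), and without mouse 3 it went to -0.56. The 8 markers summed to 21.8, 12.98 and 127 CPM in the members of mice 1, 2 and 3, and to 24.6, 32.7 and 42.1 in other wells. Amh and Gata4 had no UMI in any member, but Amh also had none in the other wells of mice 1 and 2. Clu and Sox9 had UMIs in the members of every mouse. Leydig cell markers gave 3 UMIs in the members of each mouse, all of them of Star, macrophage markers at most 3 and peritubular and endothelial markers at most 2. Spermatid markers, sums of which ran from 35.8 to 113 CPM in members and from 45.2 to 206 in other wells, were higher for Spaca1 and lower for Prm2 of 7 tested. With mouse 3 taken from either of its libraries alone, no Sertoli marker was called, and the counts for leptotene and zygotene (10 higher, 1 lower) and later pachytene markers (12 lower) were as before.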

How the data were processed

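UMI counts per gene and well, read counts and estimated transcripts were deposited by the authors for 1920 wells of 3 mice. Per the submitters' processing notes, reads were mapped with BWA 0.7.10 to mm10; the annotation and counting tool were not given in the sources used here. The deposited UMI counts are whole numbers, not normalized, with a highest value of 256 in mouse 1 and 4043 in mice 2 and 3. The transcripts were not used, since in mouse 1 none of 475 wells correlated with the UMI table at the same position (r over 0.95), whereas all wells of mice 2 and 3 did. Columns of mouse 1 do not separate its 8 libraries, which were pooled.

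ERCC, mitochondrial, eGFP and Rn45s rows were left out of totals. The members and gene lists were chosen with earlier results of these data known, and the score genes were left out of all tests, as were Ccnb3, or Gml and Hemt1, in the comparison whose wells they chose. Sums per mouse held 231050 to 504815 UMIs for members, 116335 to 311796 for Ccnb3-high, 373025 to 910692 for Gml and Hemt1-high and 5505358 to 17279427 for other wells. edgeR 4.0.16 (R 4.3.3) used TMM factors, filterByExpr and the mouse as a block, since both sums came from the same animal. Fold changes are edgeR's, and CPM carry no TMM factor. The mice are separate animals, but each sum pools cells of 1 mouse. Genes were named by size: per comparison, among genes past the threshold with the same sign in 3 of 3 mice and at least 30 UMIs in the higher group, the 12 largest rises and 8 largest falls against other wells and 8 of each otherwise, plus the lists; 2 genes of the last comparisons are left unnamed. Doublets were not searched for; per the labels, single cells were sorted. No kept wells had identical counts (0 of 1228), and no well name was shared between libraries. On simulated counts with 4-fold changes, 89.4% (other wells), 97.8% (Ccnb3-high) and 94.8% (Gml and Hemt1-high) of changed genes were recovered, and with 2-fold changes 20.8%, 31.6% and 31.6%. Gene positions are from GENCODE M21 (GRCm38). Python 3.11.15, pandas 2.3.3, scipy 1.17.1 and DESeq2 1.42.0 (as an alternative) were also used. Intervals over mice cover these 3 animals only.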

Additional observations from a re-analysis of the deposited data

How the results depend on the processing

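Counts of calls depended on the test and the weighting, directions seldom did. Fitted with no replicate block, that is without pairing the sums of a mouse, edgeR called 1449 genes higher and 2065 lower than in other wells, 160 and 217 against Ccnb3-high, and 592 and 637 against Gml and Hemt1-high wells. DESeq2 gave 186 and 254, and 630 and 557 in the last 2 comparisons, and read counts gave 210 and 229, and 791 and 730. With each well thinned to 3000 UMIs, an alternative chosen after seeing the data, 829 and 982, 177 and 223, and 292 and 260 genes were called, over fewer genes tested (7169, 2474 and 2660, against 11449, 5485 and 6844). No filter on low counts gave 1591 higher than in other wells. The top 5% of wells gave 324 and 372 against Ccnb3-high and 841 lower than in Gml and Hemt1-high wells, and the top 12% gave 1081 lower and 2087 higher, respectively. Mouse 3 from its gate-sorted library alone gave 419 higher than in Ccnb3-high wells, and from its index-sorted library alone 382 higher and 423 lower. Leaving out 1 mouse gave 1375 (without mouse 2) to 1864 (without mouse 1) genes higher than in other wells, and against Ccnb3-high wells 266 (without mouse 3) to 559 higher and 383 to 648 lower; the cause was not tested.

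The log2 ratio of X shares of members to other wells was 0.27 with thinned wells, 0.26 with means over wells and reversed to -0.30 with medians over wells. That of UMIs per well went to -0.61 with a minimum of 1000 UMIs, and that of the mitochondrial share to 0.59 with reads. Of 361 gene values, 186 stayed called under every alternative that gave one. Against other wells, Ccne1, Pdha2, Rpl10l, Smc3 and Tex11 reversed with thinned wells (-0.53, 0.18, 0.15, -0.74 and -0.34), Smc1b and Tex15 with the top 12% (0.042 and 0.16) and Tex15 with the gate-sorted library (0.21). Leaving out 1 mouse moved Clu between -0.56 (without mouse 3) and 1.33 (without mouse 2), and it reversed with either of its libraries (-0.63 gate-sorted, -0.17 index-sorted) and the top 5% (-0.18), and Cldn11 with the gate-sorted library (-0.19). The median of all genes against other wells moved from -0.15 to -0.35 with reads and -0.76 without a filter. Depth limits what can be seen in the Ccnb3-high sums, the smallest.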

Other observations

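Some lists not set against both neighbours above add detail. Against Gml and Hemt1-high wells, 4 of 11 synaptonemal complex genes were higher (4930447C04Rik, Sycp1, Sycp2 and Sycp3) and Syce1 and Tex12 lower, and 3 of 8 cohesins and partners were higher (Smc1a, Smc3 and Stag2) and 2 lower, by edgeR at an adjusted p under 0.05. Smc1a and Stag2 are X-linked. Of 18 strand exchange genes, Dmc1 was higher and 8 were lower. Prss50, a testis protease, had 342, 861 and 529 CPM in members against 124, 247 and 230.5 (log2 fold change 1.46 ± 0.14, edgeR adjusted p = 2.72e-21), without overlap. It overlapped the Ccnb3-high wells, at 491, 585 and 1105 CPM (-0.38 ± 0.17, edgeR adjusted p = 0.0865).

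The number of genes seen per well, thinned to 3000 UMIs, had medians of 1901.5, 1870.5 and 1859.5 in members and 1934, 1943 and 1941 in other wells of mice 1, 2 and 3. Without thinning these were 3847, 3427 and 4213 against 6146, 4725 and 5878.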
